A study of Mus musculus with 6 samples.

Results

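The Hox genes of sorted mouse mammary cells were followed across 6 RNA sequencing libraries. The members were every gene symbol made of Hox, a cluster letter from a to d and a number, without antisense or opposite-strand transcripts, and 38 of them, out of 55291 symbols in the count tables, are described. The libraries came from pubertal mammary glands, and the study compared cells that express the adhesion receptor Gpr125 (gene Adgra3) with cells that do not. All mice, those of the reference group included, were Adgra3-lz/+ and 6 weeks old, so each cell carried a lacZ reporter fused into a single copy of Adgra3, and the reporter marks cells by activity of the Adgra3 locus. Cells positive for the endothelial marker CD31, the leukocyte marker CD45 or the erythroid marker Ter119 were set aside, and CD49f-high cells were then sorted by the fluorescent lacZ substrate FDG. The 3 groups were Gpr125-negative cells (no FDG signal), Gpr125+ cells of the distal part of the gland, cut at the lymph node, which holds the terminal end buds (TEB-distal), and Gpr125+ cells of the part nearest the nipple (nipple-proximal). Each group had 2 libraries, each from both abdominal glands of 5 pooled mice according to the series' design text. The labels give the Gpr125-negative libraries no region, so the same 2 libraries served as reference for both Gpr125+ groups. Nothing states that the 2 libraries of a group came from separate cell sorts, so the p-values measure only the spread between these libraries.

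Hox genes encode homeodomain transcription factors that give cells their position along the head-to-tail axis. In mammals they lie in 4 clusters on different chromosomes, and genes in matching positions of the clusters form paralog groups, numbered 1 to 13 from the anterior end. Genes of low number are used from the hindbrain backwards, those of middle number in the trunk, and those of high number in the lumbar, sacral and limb regions. In the mammary gland, Hoxa5 is needed for normal epithelial growth, the group 9 genes Hoxa9, Hoxb9 and Hoxd9 act together in the gland of pregnancy, and Hoxc6, Hoxc8 and Hoxd10 have also been linked to the gland. The proteins bind DNA together with partners of the TALE class (Pbx, Meis and Pknox), and the clusters are held silent by Polycomb proteins and kept active by trithorax proteins.

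Total counts were between 20134890 and 37296640 per library, so that 3 counts, the smallest number taken as detection, corresponded to 0.0804 to 0.149 CPM (counts scaled to a library of 1e+06). Gpr125-negative 2 stood apart, with 14698 genes at 3 or more counts against 17860 to 19469 in the other libraries. Adgra3 itself, the sorted gene, showed 1658 and 550 counts where the label reads Gpr125-negative, against 385 and 142 in TEB-distal and 391 and 262 in nipple-proximal libraries, so its RNA did not follow the labels of the sort. The paper treats the sorted CD49f-high cells as basal, and all 12 basal markers (Krt5, Krt14, Acta2 and others) were detected in every library. Endothelial markers were detected in every library too, as given below. All 12 luminal markers were detected in Gpr125-negative 1 and 7 to 11 of them elsewhere.

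Expression of the Hox genes was sparse. Of the 38 genes, 24 had at least 1 count in a library and 22 reached 3 counts in at least 1 library. The other 14 had no read in any library, namely Hoxa3, Hoxa10, Hoxa11, Hoxa13, Hoxb13, Hoxc5, Hoxc10, Hoxc12, Hoxc13, Hoxd1, Hoxd3, Hoxd11, Hoxd12 and Hoxd13. For such a gene a count of 0 allows a level of up to 3 counts per library, and this limit covers counting error only because the libraries hold no molecular identifiers. Values of Hoxd3, Hoxd4, Hoxa11 and Hoxa3 are uncertain, since 62.8%, 52.3%, 35.0% and 27.1% of their exon bases lie in other genes too and how such reads were assigned is not given in the sources used here. Just 8 of them passed the expression filter of the test, which kept 17268 genes in all: Hoxa7, Hoxb2, Hoxb3, Hoxb4, Hoxb6, Hoxb7, Hoxb9 and Hoxd8. The remaining 16 had reads but did not pass the filter (Hoxa2, Hoxa4, Hoxa5, Hoxa6, Hoxa9, Hoxb1, Hoxb5, Hoxb8, Hoxc4, Hoxc6, Hoxc8, Hoxc9, Hoxc11, Hoxd4, Hoxd9 and Hoxd10), with 0 to 163 counts per library. The 8 tested genes also lay low among the 16912 tested genes with a known exon length. Per kilobase of exon, 28.9% of those genes had a lower mean level than Hoxb2, the highest member, and 1.25% had a lower level than Hoxb3, the lowest of the 8.

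The number of detected Hox genes was lowest in the TEB-distal libraries and differed most between the Gpr125-negative replicates. Of the 38 genes, those at 3 or more counts numbered 17 and 8 for Gpr125-negative, 6 and 5 for TEB-distal and 11 and 7 for nipple-proximal cells. As a share this was 44.7% in Gpr125-negative 1 and 13.2% to 28.9% in the other 5 libraries, while 51.6% to 63.6% of 21507 protein-coding genes reached 3 counts. Hoxb2 and Hoxb4 alone were detected in all 6 libraries, Hoxb9 was detected in 5, and 9 members reached 3 counts in a single library (Hoxa2, Hoxa4, Hoxa6, Hoxa9, Hoxb1, Hoxc9, Hoxc11, Hoxd4 and Hoxd9).

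**Figure D1:**
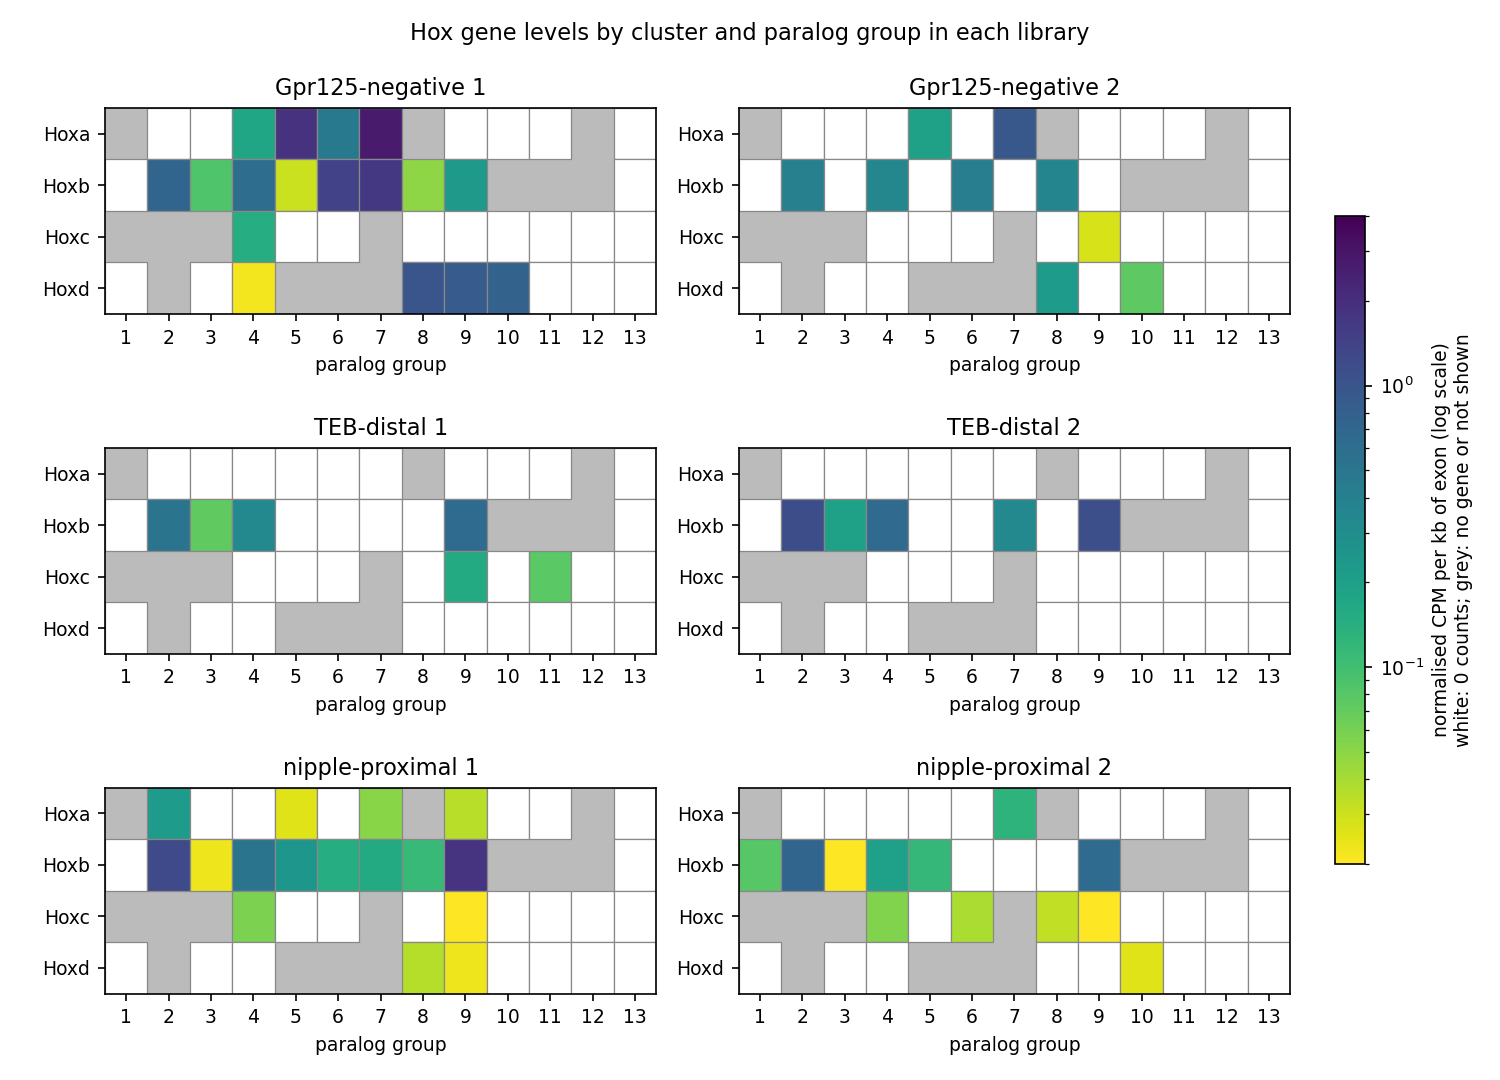
Level of each Hox gene in each library, as normalised CPM per kilobase of exon on a log colour scale, with clusters in rows and paralog groups 1 to 13 in columns. White cells are genes with 0 counts and grey cells are positions where no gene is shown. Hoxa7, Hoxb6 and Hoxd8 are coloured in both Gpr125-negative panels and white in both TEB-distal panels, the Hoxd row is empty in both TEB-distal panels, and group 12 and 13 positions hold no count in any panel.

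The summed level of the Hox genes did not separate the groups. Summed over these 38 genes, normalised CPM reached 29.1 and 8.02 for Gpr125-negative, 5.18 and 9.89 for TEB-distal and 12.95 and 6.07 for nipple-proximal cells. The group values were 18.6 ± 14.9, 7.53 ± 3.34 and 9.51 ± 4.87 (mean ± SD, n = 2 each), and their ranges overlapped. The trunk genes alone, groups 4 to 8, did differ without overlap. Per kilobase of exon, their summed level was 10.2 and 2.51 CPM in the Gpr125-negative libraries, 0.334 and 0.979 in TEB-distal and 1.35 and 0.578 in nipple-proximal libraries, so that both reference libraries were above all 4 Gpr125+ libraries. Groups 9 to 13 reached 1.90 and 0.102 CPM per kilobase in Gpr125-negative, 0.872 and 1.11 in TEB-distal and 1.89 and 0.685 in nipple-proximal libraries, and the 3 groups overlapped. In both reference libraries the trunk genes were thus above the posterior genes, whereas in all 4 Gpr125+ libraries the posterior sum was the higher. The posterior genes did not move as a set, since Hoxd9 and Hoxd10 had most of their reads in Gpr125-negative 1. Hoxb9 alone made up most of the posterior sum, with 0.635 and 1.11 CPM per kilobase in TEB-distal and 1.81 and 0.640 in nipple-proximal libraries. With 2 libraries against 2, no exact permutation test of such a sum can give a p under 0.333, so these sums are descriptions.

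**Figure D2:**
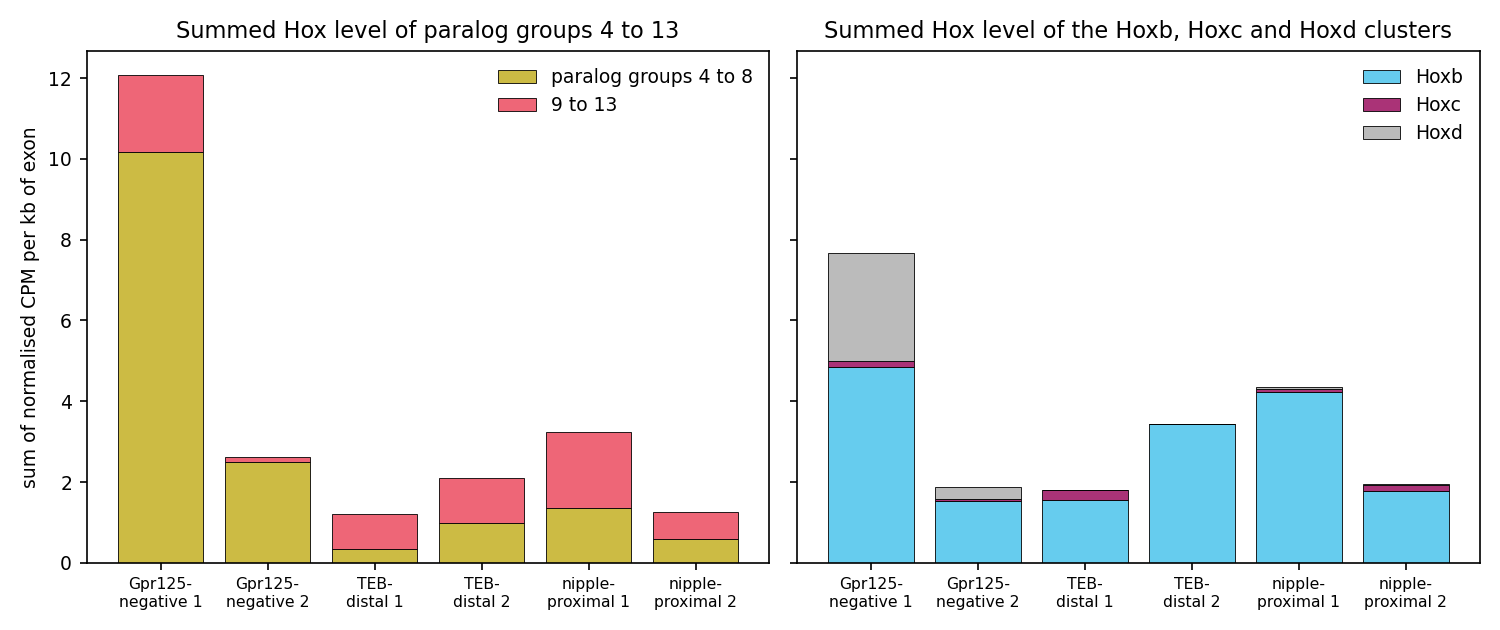
Summed Hox level in each library as stacked bars of normalised CPM per kilobase of exon, for paralog groups 4 to 8 and 9 to 13 on the left and for the Hoxb, Hoxc and Hoxd clusters on the right. Groups 4 to 8 reach 10.2 and 2.51 in the Gpr125-negative libraries and 0.334 to 1.35 in the Gpr125+ libraries, and Hoxd genes form a visible part in the Gpr125-negative libraries alone.

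The promoters of 3 tested members are shown. They were the only tested members matched in the promoter table, so those of Hoxb6, Hoxb9 and the other tested members are not shown. Hoxa7 and Hoxd8 are trunk genes without a read in TEB-distal libraries, and Hoxb4 was read in all 6 libraries. Each run is 300 bases of GRCm38.p6 from RefSeq, from 250 bases before to 50 bases after the gene's start, written 5′ to 3′ on the strand of the gene, with CG dinucleotides in capitals. Hoxa7 lies at chr6:52218524-52218823 on the minus strand, Hoxb4 at chr11:96318017-96318316 and Hoxd8 at chr2:74704365-74704664, both on the plus strand. The Hoxa7 window falls inside the longer gene that GENCODE M21 annotates at chr6:52214491-52221854.
Hoxa7: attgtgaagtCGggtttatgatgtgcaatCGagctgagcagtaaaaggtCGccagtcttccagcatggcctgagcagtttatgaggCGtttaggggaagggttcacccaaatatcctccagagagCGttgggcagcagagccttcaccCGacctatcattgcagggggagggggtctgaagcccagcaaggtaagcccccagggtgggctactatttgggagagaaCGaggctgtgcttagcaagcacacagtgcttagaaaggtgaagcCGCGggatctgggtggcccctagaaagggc
Hoxb4: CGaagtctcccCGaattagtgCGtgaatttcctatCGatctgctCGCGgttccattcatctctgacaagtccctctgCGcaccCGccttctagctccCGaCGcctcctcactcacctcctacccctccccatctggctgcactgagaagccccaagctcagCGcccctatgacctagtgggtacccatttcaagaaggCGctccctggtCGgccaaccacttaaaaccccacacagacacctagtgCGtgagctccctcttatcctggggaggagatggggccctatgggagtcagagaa
Hoxd8: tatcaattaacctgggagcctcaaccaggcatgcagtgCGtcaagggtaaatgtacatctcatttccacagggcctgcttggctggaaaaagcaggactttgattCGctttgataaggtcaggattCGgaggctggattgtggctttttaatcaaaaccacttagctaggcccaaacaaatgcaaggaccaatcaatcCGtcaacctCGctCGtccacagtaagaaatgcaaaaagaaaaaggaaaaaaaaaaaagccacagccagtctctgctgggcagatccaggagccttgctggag
The windows held 9, 14 and 6 CG dinucleotides and 55.7%, 58.0% and 46.7% G and C, in that order. RefSeq start sites were matched for 22 of the 38 genes, which gave 24 promoters with a median of 14.5 CG dinucleotides against 7 in all 32851 promoters of this length. Their median G and C content was 57.7% against 52.7%. AGGTCA, a core site of nuclear hormone receptors, was found on either strand in 7 of the 24 Hox promoters and in 16.3% of all promoters, and both Hoxb4 and Hoxd8 held it. TATAAA was found in 4 of 24 against 13.6% of all promoters, the Hox and Pbx motif TGATNNAT in 4 of 24 against 8.85%, and the homeodomain motif TAATTA in 2 of 24 against 5.29%. None of these 4 motifs was in the Hoxa7 window.

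Of the anterior members, Hoxb2 and Hoxb3 were read in all 3 groups. Hoxb2 (chr11:96350525-96354012), which patterns the hindbrain, had 118 and 42 counts in the Gpr125-negative libraries, 47 and 119 in TEB-distal and 86 and 54 in nipple-proximal libraries. It had the highest mean level per length of all members, 0.793 CPM per kilobase, and its TEB-distal values overlapped those of the reference. Hoxb3 (chr11:96323326-96347930) had 17 and 0 counts in the Gpr125-negative libraries, 8 and 24 in TEB-distal and 2 and 1 in nipple-proximal libraries. Of its exon bases 52.9% are shared with Hoxb3os on the opposite strand, and of those of Hoxb2 27.3%. The counts ignored strand, so reads of these genes and of Hoxb3os cannot be told apart there. Hoxa2 had 8 counts in nipple-proximal 1 and Hoxb1 had 4 in nipple-proximal 2, with none elsewhere.

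Among the trunk genes, Hoxa5, Hoxa7, Hoxb6 and Hoxd8 had most of their reads in Gpr125-negative cells. Hoxa7 (chr6:52214491-52221854), which takes part in patterning of the trunk skeleton, had 363 and 81 counts in the Gpr125-negative libraries, none in either TEB-distal library and 3 and 8 in the nipple-proximal libraries. Hoxb6 (chr11:96292476-96301569) had 129 and 25 counts in the Gpr125-negative libraries, none in TEB-distal and 6 and 0 in nipple-proximal libraries. Hoxd8 (chr2:74704615-74707933) had 127 and 18 counts in the Gpr125-negative libraries, none in TEB-distal and 2 and 0 in nipple-proximal libraries. For these 3 genes both Gpr125-negative libraries were above all 4 Gpr125+ libraries. Of all tested genes, 10.1% lay below both reference libraries in both TEB-distal libraries, and 10.7% in both nipple-proximal libraries. The share that did so in all 4 was not computed. The 3 genes passed the expression filter through the reference libraries, so a difference was built into their selection. Hoxa5 (chr6:52201754-52204587), the member needed in the mammary epithelium, had the same order of groups but did not pass the filter. Its counts were 163 and 11 in Gpr125-negative, 0 and 0 in TEB-distal and 1 and 0 in nipple-proximal libraries. The count in Gpr125-negative 1 was above those of Hoxb6 and Hoxd8, and the count in Gpr125-negative 2 was below them.

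Other trunk members had overlapping groups or reads in a single reference library. Hoxb4 (chr11:96318267-96321638), known for the growth of blood stem cells, had 74 and 26 counts in the Gpr125-negative libraries, 22 and 49 in TEB-distal and 27 and 11 in nipple-proximal libraries, with all 3 groups overlapping. Hoxb7 (chr11:96286623-96290162) had 121 and 0 counts in the Gpr125-negative libraries, 0 and 15 in TEB-distal and 5 and 0 in nipple-proximal libraries, so that every group held a library without reads. Hoxb8 had 6 and 28 counts in Gpr125-negative libraries, 6 in nipple-proximal 1 and none elsewhere. Hoxb5 went the other way, with 4 and 0 counts in Gpr125-negative, none in TEB-distal and 14 and 7 in nipple-proximal libraries. Hoxa4 and Hoxa6 were read in Gpr125-negative 1 alone, with 13 and 19 counts, and Hoxd4 had 3 counts there and none elsewhere. Hoxc4, the highest of its cluster, had 18 and 0 counts in Gpr125-negative, none in TEB-distal and 3 and 3 in nipple-proximal libraries, and Hoxc6 and Hoxc8 had 2 counts each, in nipple-proximal 2.

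Among the posterior members, Hoxb9 was the main gene read in Gpr125+ cells. Hoxb9 (chr11:96271457-96276595) had 28 and 0 counts in the Gpr125-negative libraries, 42 and 84 in TEB-distal and 95 and 35 in nipple-proximal libraries. As normalised CPM this was 0.301 ± 0.425, 2.25 ± 0.863 and 3.15 ± 2.13 (mean ± SD, n = 2 each), and all 4 Gpr125+ libraries were above both reference libraries. Of all tested genes, 14% lay above both reference libraries in both TEB-distal libraries and 19.9% in both nipple-proximal libraries. The share in all 4 was not computed. The reference value of 0 was in Gpr125-negative 2, the library with the fewest detected genes. Hoxd9, a paralog of Hoxb9, had 89 counts in Gpr125-negative 1, none in Gpr125-negative 2 and at most 1 in the Gpr125+ libraries. Hoxd10 had 65 and 4 counts in the Gpr125-negative libraries, none in TEB-distal and 0 and 1 in nipple-proximal libraries. Hoxc9 had 10 counts in TEB-distal 1 and 0 to 2 elsewhere, Hoxc11 had 4 in TEB-distal 1 alone, and Hoxa9 had 4 in nipple-proximal 1 alone. Groups 12 and 13 had no read in any library.

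**Figure D3:**
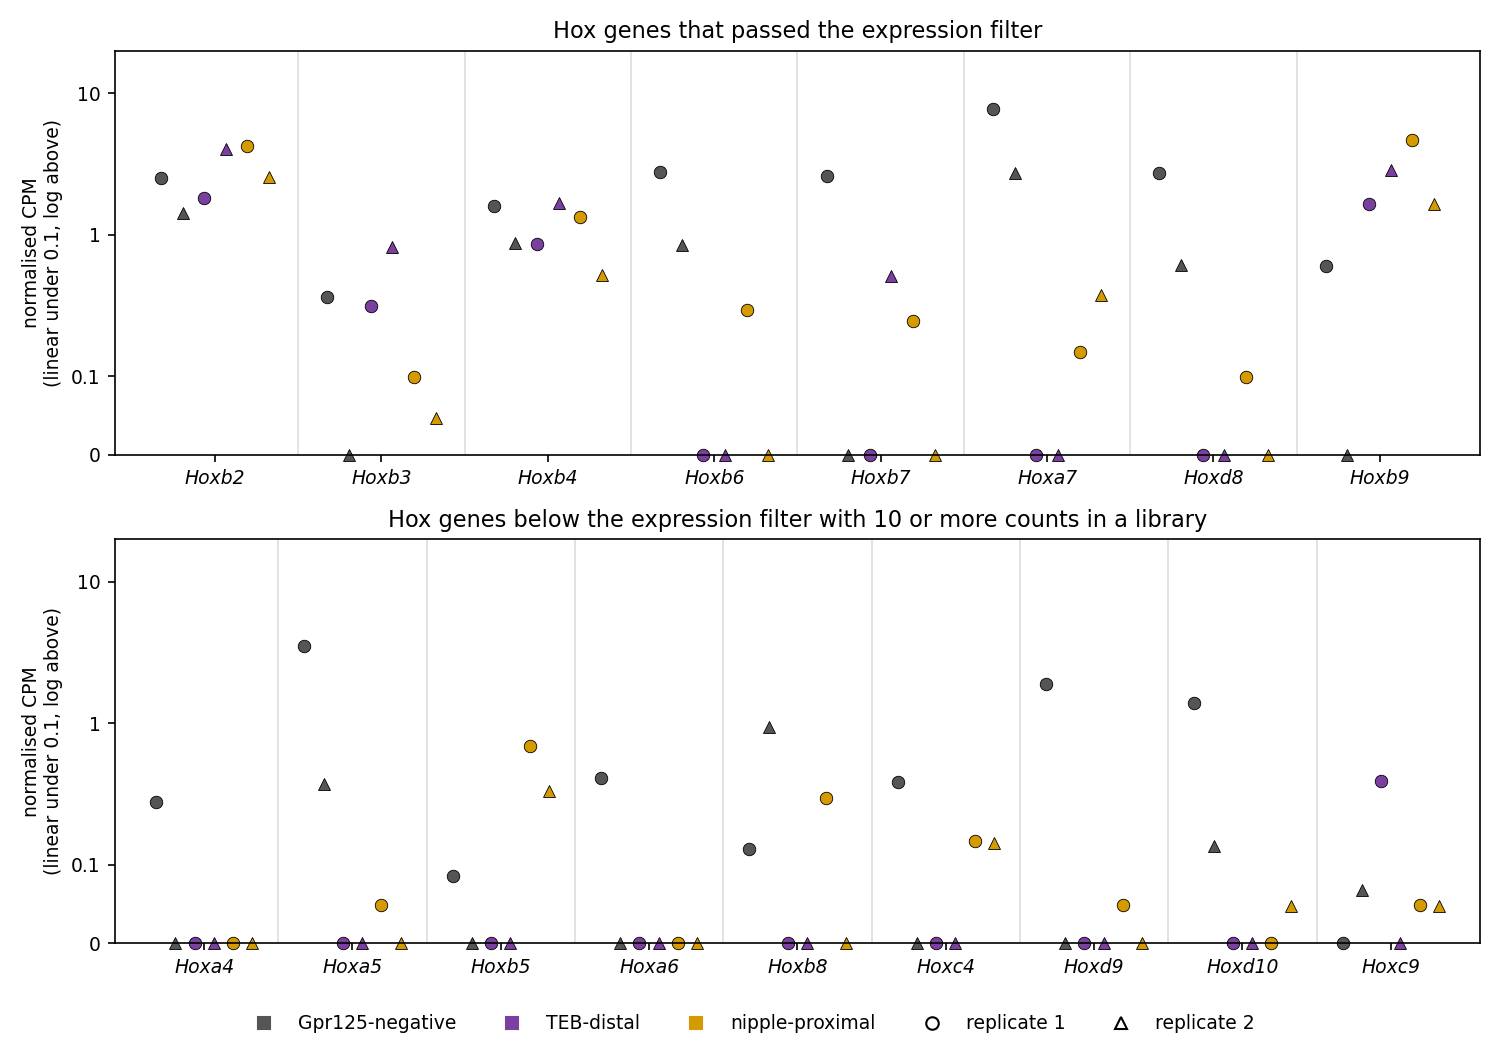
Normalised CPM of 17 Hox genes in each library, with the 8 tested genes above and the 9 untested genes that reached 10 counts in a library below. Colours are the groups, circles replicate 1 and triangles replicate 2, and the vertical axis is linear under 0.1 and logarithmic above. Hoxa7, Hoxb6 and Hoxd8 show both reference points above all others, and Hoxb9 shows both below.

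By cluster, Hoxb was the one with well-read genes in all groups. The Hoxb cluster (chr11:96194316-96368256, 10 genes) had 9 members with reads and 6 that were tested. Its summed level per kilobase was 4.84 and 1.54 CPM in Gpr125-negative, 1.57 and 3.44 in TEB-distal and 4.23 and 1.78 in nipple-proximal libraries, with all 3 groups overlapping. Hoxa genes, on chromosome 6, reached 5.22 and 1.15 CPM per kilobase in the Gpr125-negative libraries, all from groups 4 to 7. The Hoxd cluster (chr2:74668310-74765142, 9 genes) reached 2.68 and 0.296 CPM per kilobase in Gpr125-negative, 0 in both TEB-distal and 0.0587 and 0.0259 in nipple-proximal libraries. The Hoxc cluster (chr15:102921103-103036852, 9 genes) had no tested gene and at most 0.237 CPM per kilobase in any library.

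Part of this pattern was carried by reads that a replicate did not share. Among 8324 genes with 10 to 400 counts in Gpr125-negative 1, the range that holds the Hox counts, 38.9% had no read in Gpr125-negative 2, and of 14 Hox genes in that range 7 had none (Hoxa4, Hoxa6, Hoxb3, Hoxb7, Hoxb9, Hoxc4 and Hoxd9). The converse share was 8.14% of genes and 0 of 7 Hox genes. In the TEB-distal pair it was 16.2% and 14.8% of genes, among them Hoxc9 and Hoxb7, and in the nipple-proximal pair 4.58% and 4.93% of genes, with 0 of the 4 and 0 of the 3 Hox genes described in that range. A value of 0 in a single library at these counts is therefore common among all genes, most of all in Gpr125-negative 2.

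The comparison of TEB-distal with Gpr125-negative cells asked what marks Gpr125+ cells at the growing duct tips. The trunk genes Hoxa7, Hoxb6 and Hoxd8, which were read in the reference, had no read in TEB-distal cells, Hoxb2 and Hoxb4 were at like levels, and Hoxb9 was higher in both libraries. None of the 8 tested genes passed the test, an FDR under 0.1 with at least a 2-fold change by edgeR's quasi-likelihood test, which called 0% of all tested genes. At an unadjusted p under 0.05 there were 3 of 8 (Hoxa7, Hoxb6 and Hoxd8), against 6.05% of all genes. All 3 were lower in TEB-distal cells, and of all genes 2.25% had such a p and were lower and 3.8% were higher. Without overlap between the groups, Hoxb9 was higher and Hoxa7, Hoxb6 and Hoxd8 were lower in TEB-distal cells, against 14% and 10.1% of all genes in those directions. These 3 lower genes passed the expression filter through the reference libraries, the only place where they were well read, so a difference was built into their selection. The median log2 fold change of the 8 genes was −1.15 and that of all genes was 0.03. The 8-gene median was 0.66 without Gpr125-negative 1, −1.83 without Gpr125-negative 2, −0.44 without TEB-distal 1 and −4.38 without TEB-distal 2. Below 0 were 4 of 8 genes and 48.9% of all genes.

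Hoxa7 gave the smallest p of the members. Its level was 5.27 ± 3.58 CPM in the reference (mean ± SD, n = 2) and 0 in TEB-distal cells, at least 48.2-fold lower when TEB-distal cells are set at 3 counts per library. This bound and the others given as at least a fold cover counting error only. The fitted log2 fold change of Hoxa7 was −10.25 (SE 2.68, edgeR FDR = 0.803). Hoxb6 was at least 16.5-fold lower (log2 −8.71, SE 3.18, edgeR FDR = 0.803) and Hoxd8 at least 15.3-fold lower (log2 −8.59, SE 3.02, edgeR FDR = 0.803). Hoxb2 differed by 0.57 (SE 1.50), less than its standard error. DESeq2, the tool of the study's methods, called 4 of the genes (Hoxa5, Hoxa7, Hoxb6 and Hoxd8) on all 6 libraries, against 5.43% of all genes, and the same 4 on the 4 libraries compared, against 4%. Its FDR for Hoxa7 was 2.45e-04 and 0.00185 in those fits. In DESeq2 fits without 1 library each, a compared group is left with a single library in 4 of 6 fits, and that library is then assumed to vary like the other groups. Hoxa7 was called in each of the 6. It alone of these genes was called without TEB-distal 1, TEB-distal 2 or nipple-proximal 1 (4.34%, 4.07% and 3.71% of all genes called). Hoxa5 was called with it without Gpr125-negative 2 (9.88%), Hoxa5 and Hoxb6 without nipple-proximal 2 (4.4%) and Hoxb9 without Gpr125-negative 1, where 20.2% of all genes were called.

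The comparison of nipple-proximal with Gpr125-negative cells asked the same of Gpr125+ cells in the older ducts. Hoxa7, Hoxb6 and Hoxd8 had a few reads in nipple-proximal cells and lay below both reference libraries, and Hoxb9 lay above them. None of the 8 genes passed the edgeR test (0% of all genes did), and 0 of 8 had an unadjusted p under 0.05, against 3.55% of all genes (2.62% higher and 0.927% lower). DESeq2 called 0 of them on 6 libraries (1.98% of all genes) and Hoxa7 on the 4 libraries compared (2.02%, FDR = 0.0490). With a library left out of the 6, it called Hoxb9 without Gpr125-negative 1, where 17.6% of all genes were called and the reference was a single library, and Hoxa7 without TEB-distal 1 (1.83%). Hoxb2 and Hoxb9 were higher without overlap and Hoxa7, Hoxb6 and Hoxd8 were lower, against 19.9% and 10.7% of all genes. For Hoxb2 the gap was narrow, 2.54 CPM in nipple-proximal 2 against 2.53 in Gpr125-negative 1.

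Hoxa7 was at 0.262 ± 0.162 CPM against 5.27 ± 3.58 (log2 −4.31, SE 1.97, edgeR FDR = 1). Hoxd8 had a log2 fold change of −4.98 (SE 2.51, edgeR FDR = 1), Hoxb9 of 3.35 (SE 2.22, edgeR FDR = 1), Hoxb6 of −3.59 (SE 2.42) and Hoxb2 of 0.77 (SE 1.50). The median of the 8 genes was −2.34 against −0.00 over all genes, 6 of 8 were below 0 against 50.2% of all genes, and the median was 0.53 without Gpr125-negative 1. Both comparisons use the same reference libraries, so the lower values of Hoxa7, Hoxb6 and Hoxd8 in them are not independent of each other.

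The comparison of TEB-distal with nipple-proximal cells asked how the Gpr125+ cells at the ends of the gland differ. Hox genes that were well read in Gpr125+ cells, Hoxb2, Hoxb4 and Hoxb9, had overlapping values in both regions. None of the 8 genes passed the edgeR test (0% of all genes). DESeq2 on 6 libraries called 0 of them (0.743% of all genes) and gave Hoxb3 no adjusted p. On the 4 libraries compared it gave an adjusted p to Hoxb2, Hoxb4 and Hoxb9 alone and called 0 of these 3 (2.29% of all genes). With edgeR, 1 of 8 had an unadjusted p under 0.05, against 2.21% of all genes (0.747% higher and 1.46% lower). That gene was Hoxa7, with 0 and 0 counts in TEB-distal against 3 and 8 in nipple-proximal cells, at least 2.39-fold lower (log2 −5.94, SE 2.37, edgeR FDR = 1). Hoxa7 was lower and Hoxb3 higher without overlap, against 18.3% and 15.2% of all genes. Hoxb6 (log2 −5.12, SE 2.84, edgeR FDR = 1) and Hoxd8 (log2 −3.61, SE 2.59, edgeR FDR = 1) rested on 6 and 2 counts in nipple-proximal 1. Hoxb2 differed by −0.20 (SE 1.49) and Hoxb9 by −0.49 (SE 2.03), and both turned positive without nipple-proximal 1 (0.20 and 0.44). The median of the 8 genes was −0.34 against 0.06 over all genes, with 5 of 8 genes and 47.4% of all genes below 0. It was −2.29 without TEB-distal 2, −0.81 without nipple-proximal 2, 0.12 without TEB-distal 1 and 0.32 without nipple-proximal 1, and −0.10 with the genes unread in TEB-distal cells set at the floor.

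**Figure D4:**
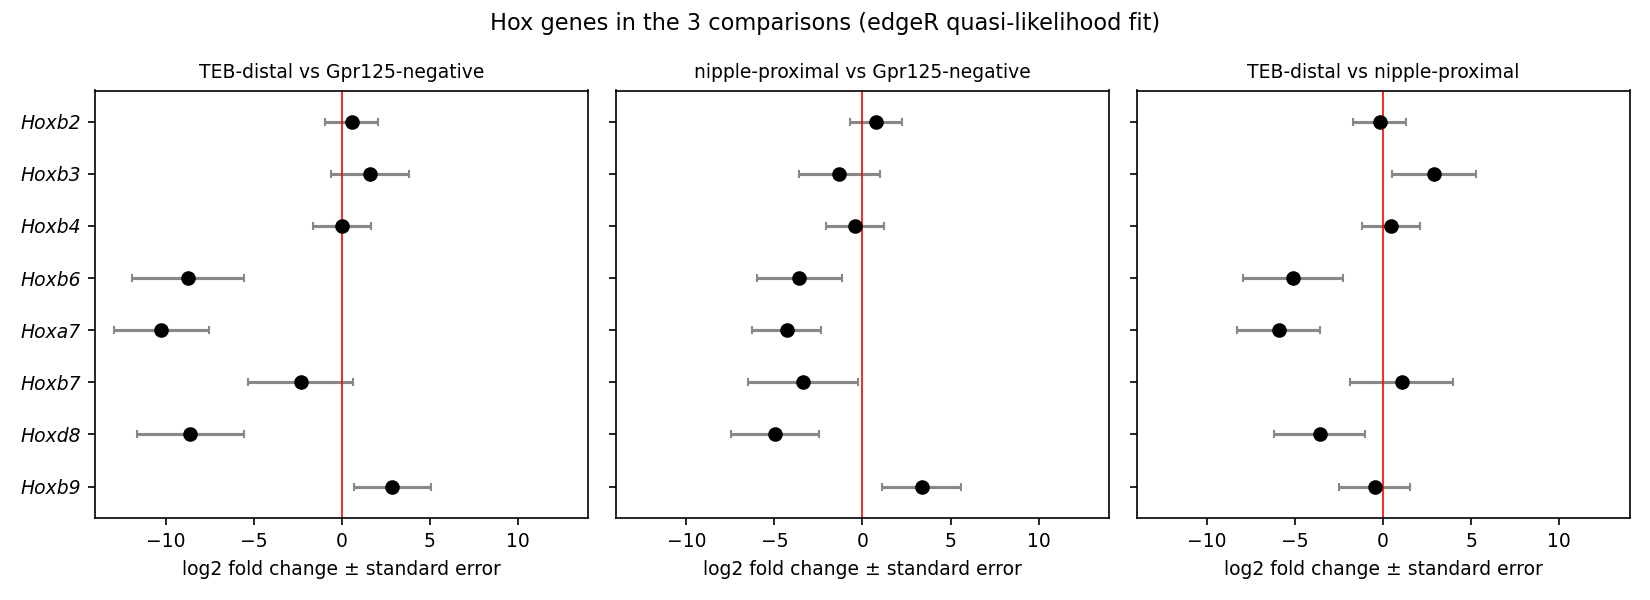
Log2 fold change of 8 tested Hox genes in the 3 comparisons, with bars of 1 standard error, derived from the fold change and the F statistic of the edgeR test. Values and bars for genes without a read in a group (Hoxa7, Hoxb6 and Hoxd8 in TEB-distal cells) depend on the prior count of the fit and are no bounds. Hoxa7, Hoxb6 and Hoxd8 lie left of 0 in all panels, and none passed an FDR of 0.1.

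The summed level of endothelial markers, though not each marker, had the same order across the groups as Hoxa7, Hoxb6 and Hoxd8. The summed level of 12 endothelial genes reached 1371 and 850 CPM in Gpr125-negative cells, 21.4 and 24.7 in TEB-distal and 250.0 and 30.1 in nipple-proximal libraries, although CD31-positive cells had been set aside before the sort. All 12 were detected in both reference libraries, 10 and 8 in TEB-distal and 12 and 10 in nipple-proximal libraries. Emcn, a surface protein of veins and capillaries, had 11970 and 13276 counts in the reference and 3 to 365 elsewhere, Pecam1, which encodes CD31, had 2017 and 1659 against 51 to 550, and Robo4 was at 0 in both TEB-distal libraries. All 12 had a log2 fold change below 0 in TEB-distal cells, and 9 of 12 had an edgeR p under 0.05, against 2.25% of all genes in that direction. EdgeR called none of them, and DESeq2 on 6 libraries called 9 of 12, all lower, against 5.43% of all genes called. Among the Gpr125+ libraries, nipple-proximal 1 had the highest endothelial sum and held the nipple-proximal reads of Hoxb6 and Hoxd8, whereas Hoxa7 had 3 counts there and 8 in nipple-proximal 2. The adipocyte list was at 671 and 630 CPM in the reference, nearly all of it Fabp4, and at 2.54 to 24.8 elsewhere. The other adipocyte markers (Adipoq, Plin1, Lep, Cidec and Pparg) had 0 to 3 counts in the reference libraries. Pparg was highest in nipple-proximal libraries, with 25 and 19 counts, so the list as a whole did not mark adipocytes in the reference. The Schwann cell list was at 124 and 228 CPM in the reference against 28.4 to 103 elsewhere. Basal markers had sums of 3387 and 3550 CPM in the reference and 4009 to 22999 in Gpr125+ libraries, and luminal markers 1556 to 3034 in all libraries. Fibroblast markers reached 32.2 to 193, leukocyte markers 9.52 to 31.9 and pericyte markers 8.45 to 54.4. Of the 7 pericyte markers, Rgs5, Cspg4, Kcnj8, Abcc9 and Des were at 0 in both TEB-distal libraries, whereas Mcam had 136 and 782 counts there and Notch3 81 and 48. Kcnj8 was also at 0 in both reference libraries, Rgs5 was at 0 in Gpr125-negative 1, and Abcc9 was read in Gpr125-negative 1 alone, with 11 counts. The part of these cell types in the Hox differences was not tested, and in pooled RNA fewer cells of a type and less RNA per cell cannot be told apart.

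**Figure D5:**
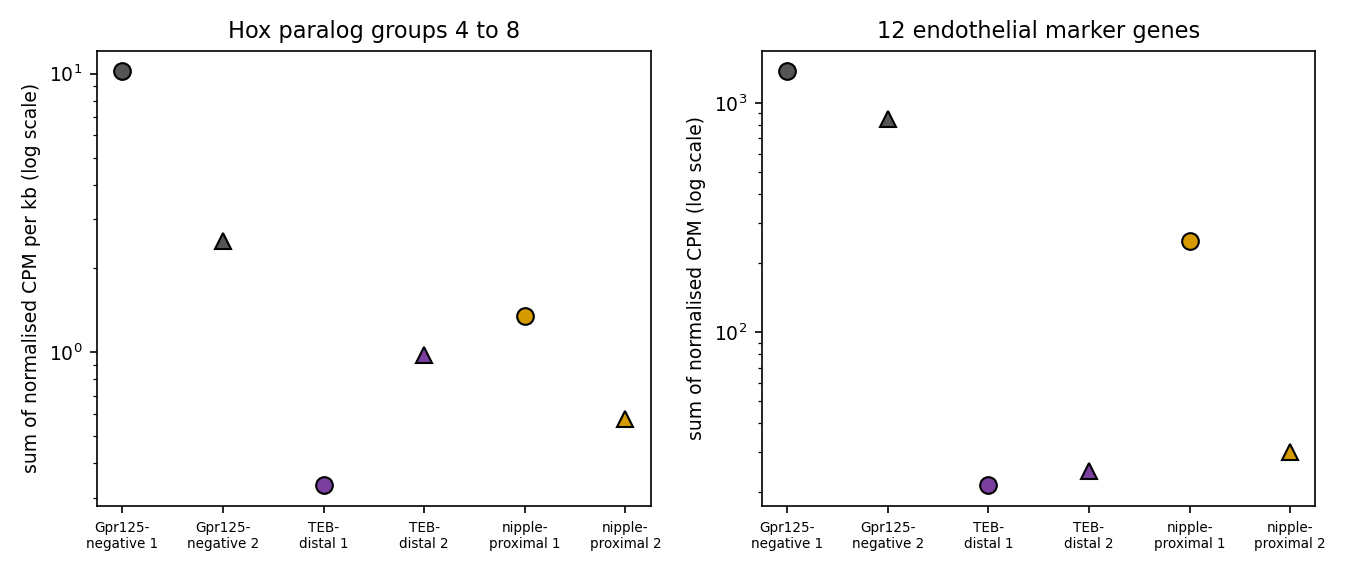
Summed normalised CPM per kilobase of Hox groups 4 to 8 (left) and summed normalised CPM of 12 endothelial markers (right) in each library, on log axes. Both sums are highest in the 2 Gpr125-negative libraries (10.2 and 2.51 on the left, 1371 and 850 on the right), and circles are replicate 1 and triangles replicate 2.

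The DNA-binding partners were expressed in all groups, with Meis2 as the exception. All 9 TALE genes passed the filter, with summed levels of 114 to 194 CPM per library, and none was called by edgeR in any comparison. Meis3 had the highest level per length, 7.38 CPM per kilobase. Meis2 had 49 and 696 counts in the Gpr125-negative libraries, none in either TEB-distal library and 43 and 19 in nipple-proximal libraries. It was at least 112-fold lower in TEB-distal cells than in the reference (log2 −11.47, SE 2.90, edgeR FDR = 0.803, DESeq2 FDR = 7.47e-05 on 6 libraries). Against nipple-proximal cells Meis2 was at least 13.7-fold lower (log2 −8.44, SE 2.68, edgeR FDR = 1). In that comparison DESeq2 on 6 libraries called 1 of the 9 partners, lower in TEB-distal cells, against 0.743% of all genes. Meis2, like Hoxa7, Hoxb6 and Hoxd8, had no read in TEB-distal libraries and passed the filter through other groups. The share of all tested genes at 0 in both TEB-distal libraries was not computed. In nipple-proximal libraries Meis2 was at 2.11 and 0.894 CPM and overlapped the reference (1.05 and 23.5), unlike those Hox genes. A link between Meis2 and the Hox genes was not tested. Pknox1 had 605 and 142 counts in the reference, 327 and 693 in TEB-distal and 363 and 1044 in nipple-proximal libraries, and Meis1 had 145 and 331, 332 and 241, and 86 and 37 in the same order. The medians of the 9 partners were −0.27, −0.36 and −0.16 in the 3 comparisons.

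The chromatin regulators that maintain Hox states were present at much higher levels. All 24 Polycomb and trithorax genes passed the filter, with summed levels of 1196 to 1449 CPM per library, and 0 of 24 had an edgeR p under 0.05 or was called in any comparison. Eed, a core subunit of the methyltransferase complex that marks silent Hox genes, had the highest level per length at 38.4 CPM per kilobase. The smallest p of the list in the comparison of TEB-distal cells with the reference belonged to Kdm6b, which removes that mark (log2 0.97, SE 0.76), and Phc1, a Polycomb subunit (log2 1.05, SE 0.93). For nipple-proximal cells against the reference they were Kmt2a, a trithorax methyltransferase (log2 0.61, SE 0.61), and Kdm6b (log2 0.75, SE 0.76). Between the Gpr125+ groups they were Phc1 (log2 1.23, SE 0.94) and Wdr5 (log2 −0.82, SE 0.67). The list's medians were −0.01, 0.13 and −0.09 in the 3 comparisons. Over all genes the medians were 0.03, −0.00 and 0.06.

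Other transcripts of the clusters had few reads. Of 19 antisense, long noncoding and microRNA genes listed, 16 were found in the tables, 2 passed the filter (Hotairm1 and Hoxb3os) and none was called by edgeR. Hotairm1 had 14 and 45 counts in the Gpr125-negative libraries, 11 and 3 in TEB-distal and 1 and 1 in nipple-proximal libraries. Hoxd3os1 had 7 and 53 counts in Gpr125-negative, 5 and 0 in TEB-distal and none in nipple-proximal libraries, while Hoxd3, at the same place, had no read anywhere. The 6 microRNA genes, with 68 to 110 exon bases each, had no read in any library. Whether these libraries could capture such short transcripts was not tested, so their zeros do not show silence.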

How the data were processed

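RNA of sorted cells was made into SMART-Seq HT libraries without molecular identifiers. The authors aligned reads to mm10 with STAR (2.7.3 in the submitters' processing notes, another version in the paper), counted them per gene with HTSeq without regard to strand, and deposited raw counts for each of the 6 libraries. The annotation release and the HTSeq overlap mode are not given in the sources used here.

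The test was edgeR's (4.0.16, under R 4.3.3: TMM, filterByExpr, robust glmQLFit and glmQLFTest) on all 6 libraries and 17268 genes in a single model. Genes were called at a Benjamini-Hochberg FDR under 0.1 with at least a 2-fold change. The test returns no standard error. Each SE given with an edgeR fold change is the absolute log2 fold change divided by the square root of the test's F statistic. For genes without a read in a group it depends on the prior count, as the fold change does. DESeq2 1.42.0 on genes with a count, other filters and scalings, a replicate block and leaving out each library were alternatives. Levels are CPM with TMM-scaled library sizes, divided by exon length (GENCODE M21, GRCm38, all 38 genes matched) to compare genes. Bounds set a group without reads at 3 counts per library. They cover counting error only and leave out the spread between replicates. The overlap between genes was taken from the same annotation.

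A further member met the rule and is not reported here, nor is a gene of another list. They stayed in the fits and are in no member count, sum or median. Fold changes are given for the 3 smallest p in each comparison and for the highest gene per length of each cluster that was tested, and genes of other lists for the 2 smallest p or the highest level. The members and lists were chosen with earlier results of these data known, and the count range used for reads absent from a replicate was set after the Hox counts were seen. No column of another sample was present.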

Additional observations from a re-analysis of the deposited data

Results flagged for a closer look

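Hoxb3os, a noncoding transcript outside the Hox members, was read above the reference level in nipple-proximal cells. Its level was 0.795 ± 0.194 CPM there, 0.160 ± 0.0133 in Gpr125-negative and 0.206 ± 0.237 in TEB-distal cells (mean ± SD, n = 2 each). The counts were 19 and 14, 7 and 5, and 1 and 11 in that order, and both nipple-proximal libraries lay above the other 4. It shares exon bases with Hoxb2 and Hoxb3 on the opposite strand, and the counts ignored strand.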

How the results depend on the processing

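With edgeR, 0 Hox genes were called in each comparison under all edgeR alternatives run, which called 0% to 3.85% of all genes in TEB-distal and 0% to 1.73% in nipple-proximal against Gpr125-negative cells (highest without Gpr125-negative 1, the reference then being a single library) and 0% to 0.133% between the Gpr125+ groups. DESeq2 called 4 of the genes described on 6 and 4 on 4 libraries in TEB-distal against Gpr125-negative cells, and 1 on 4 libraries in nipple-proximal against Gpr125-negative cells. Without 1 library each, a choice made after seeing the data, DESeq2 on 6 libraries called 1 to 3, 0 to 1 and 0 to 0 of them in the 3 comparisons, and 3.71% to 20.2%, 0.318% to 17.6% and 0.16% to 2.03% of all genes. Leave-one-out medians ran from −4.38 (without TEB-distal 2) to 0.66 (without Gpr125-negative 1), from −3.23 to 0.53 (without Gpr125-negative 1) and from −2.29 (without TEB-distal 2) to 0.32 (without nipple-proximal 1). A filter of 10 counts in 4 libraries left 3 of the genes and moved the medians against the reference to 0.58 and 0.73. At 10 counts 4 and 3 of them were detected in the nipple-proximal libraries, and at 1 count 12 in nipple-proximal 2. Without 1 library each, Hoxb2 in TEB-distal cells ran from −0.12 (without TEB-distal 2) to 1.03 against the reference and from −0.90 to 0.32 (without TEB-distal 1, and 0.20 without nipple-proximal 1) against nipple-proximal cells, and Hoxb9 from −1.07 to 0.44 (without nipple-proximal 1) against nipple-proximal cells. The cause of these shifts was not tested. No value could be given for Hoxb6 and Hoxd8 between the Gpr125+ groups without nipple-proximal 1, since both groups were then at 0.

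Deviations of libraries with the same replicate number had correlations of −0.03, 0.19 and −0.00 across 17268 genes in the 3 comparisons. With 2 libraries per group these values cannot settle whether equal numbers shared a sort or batch. With the replicate block 0 members were called in each comparison, medians were 0.39, −1.85 and −0.01, and Hoxb9 reversed to 0.13 between the Gpr125+ groups. For counting error alone, depth limits the 14 unread members to 3 counts per library, 0.0804 to 0.149 CPM. A value of 0 beside a replicate with reads was common among all genes, so the true level may lie above this limit.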

Other observations

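Other homeobox and patterning genes of skin appendages were read more widely than the Hox genes. Of 22 such genes described 12 passed the filter, and none was called by edgeR in any comparison. Irx2, an Iroquois factor, was the highest per length at 127 CPM per kilobase, above every Hox gene. Dlx3, a regulator of hair and placenta, had 17 and 0 counts in the Gpr125-negative libraries, 364 and 459 in TEB-distal and 116 and 59 in nipple-proximal libraries. All 4 Gpr125+ libraries were above the reference, by a log2 fold change of 6.28 (SE 2.00, edgeR FDR = 0.803, DESeq2 FDR = 5.00e-04 on 6 libraries) in TEB-distal and of 4.47 (SE 1.84, edgeR FDR = 1) in nipple-proximal cells. For nipple-proximal cells against the reference, DESeq2 on 6 libraries called 1 of the patterning genes described, higher, against 1.98% of all genes.

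Tbx2, a T-box factor of limb and mammary development, showed 232 and 983 counts in TEB-distal cells against 346 and 133 in the reference, and its log2 difference was 1.83 (SE 1.05, edgeR FDR = 0.927). Irx3, an Iroquois factor, had 327 and 1269 counts in TEB-distal and 1158 and 1732 in nipple-proximal libraries, and the fold change was −1.31 (SE 0.83, edgeR FDR = 1). Prrx2, a mesenchymal homeobox gene, had 29 counts in Gpr125-negative 1, 66 in TEB-distal 2 and none elsewhere. Evx1 and Evx2, which adjoin the Hoxa and Hoxd clusters, and the Cdx genes, which act upstream of trunk Hox genes, had no read in any library.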
